A study of Mus musculus with 19 samples.

Results

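Ehhadh, Acaa1a, Acaa1b, Pex11a, Crat, Decr2, Hsd17b4 and Abcd3 are 8 genes of fatty acid oxidation in the peroxisome. They were taken by symbol from a table of read counts in mouse liver, where they were 8 of 24421 symbols, and all 8 were among the 13293 genes with enough reads to be tested. The study asked what loss of perilipin 5, a protein that coats lipid droplets, does to the liver in fasting and after a meal. Mice on a purified normal diet were injected with an antisense oligonucleotide (ASO) against Plin5 or with a control ASO, 2 times per week for 3 weeks. An ASO is a short synthetic nucleic acid that pairs with an RNA and leads to its breakdown, and in liver it is not limited to hepatocytes. All mice were fasted overnight, and a part of them was then fed again for 4 h before liver RNA was sequenced. The 4 groups were 5 re-fed libraries with PLIN5 ASO, 5 re-fed libraries with control ASO, 5 fasted libraries with PLIN5 ASO and 4 fasted libraries with control ASO, the last numbered 1, 3, 4 and 5. No second PLIN5 oligonucleotide is named, and the sources used here state neither the oligonucleotide sequences nor the strain, sex and age of the mice. The labels do not say that each library is a separate mouse, so the p-values measure the spread between these libraries, which may be technical.

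Peroxisomes take in very long-chain, branched and dicarboxylic fatty acids as CoA esters through half-transporters of the ABCD family. A first oxidation then makes a double bond and hydrogen peroxide, a bifunctional enzyme adds water and oxidises the product, and a thiolase splits off acetyl-CoA. The shortened acyl and acetyl groups leave as carnitine esters or as free acids, and much of the chain is finished in mitochondria. In rodent liver many genes of this pathway are targets of PPAR alpha, a nuclear receptor that is active in fasting.

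Total counts were 24.9 to 66.9 in units of 1e6 in the re-fed PLIN5 ASO libraries, 25.8 to 30.8 in the re-fed controls, 28.7 to 31.8 in the fasted PLIN5 ASO libraries and 28.2 to 34.0 in the fasted controls. Levels are given as counts per 1e6 counts (CPM) on library sizes scaled by the TMM method, with the SD between libraries. A gene is said to be called where the adjusted p of edgeR's quasi-likelihood test was under 0.05 over the 13293 genes. Plin5, the target, was at 9.98, 11.8, 3.91, 5.54 and 7.51 CPM in the re-fed PLIN5 ASO libraries and 27.3, 51.8, 45.4, 28.3 and 34.8 CPM in the re-fed controls, and at 7.69, 6.15, 12.6, 6.14 and 13.1 CPM in the fasted PLIN5 ASO libraries and 35.1, 36.3, 38.5 and 37.8 CPM in the fasted controls. It was called lower with PLIN5 ASO in both states, 4.86 times re-fed and 4.04 times fasted, and the groups did not overlap. In 4 libraries Arntl, a clock gene with a daily rhythm, was at 14.6 and 15.0 CPM (fasted PLIN5 ASO 3 and 5) and at 23.8 and 45.0 CPM (re-fed control 3 and 5), against 0.57 to 4.87 CPM in the other 15. These 4 clock-shifted libraries had 1.82 to 18.9 CPM of Dbp, which cycles in the opposite phase, against 36.3 to 160 CPM in the rest. Fasted control 3 and 4 were closer to each other than any other pair of 1 group, with a chi-square of 3.27 per degree of freedom over genes, against 19.5 for the next pair, and still differed beyond sampling noise. For the members, calls and signs that depend on these libraries are given with and without them, as are some fold changes. Markers of hepatocytes summed to 99045 to 143083 and 81609 to 104290 CPM in re-fed PLIN5 ASO and control libraries and to 84791 to 112511 and 82276 to 101185 CPM in fasted ones.

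The members lie on 7 chromosomes of the mouse genome (GRCm38, positions from GENCODE). Ehhadh spans chr16:21761287-21787807 on the minus strand. Acaa1a and Acaa1b sit on chromosome 9, at chr9:119339676-119350299 on the plus strand and chr9:119148023-119157093 on the minus strand, 182582 bp apart with 3 coding genes between them. Pex11a is at chr7:79735957-79743131, Crat at chr2:30400471-30415813, Decr2 at chr17:26081208-26090337 and Abcd3 at chr3:121758774-121815302, all on the minus strand. Decr2 alone of the 8 overlaps no other annotated gene. The sources used here do not state whether reads were counted by strand, so reads from the overlapping stretches (Myd88 and Slc22a14 for Acaa1a, Dlec1 for Acaa1b, Dolpp1 for Crat and less well described genes or a pseudogene for the other members) cannot be assigned with certainty.

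Acaa1a and Acaa1b encode near-identical thiolases: 1231 of 1275 coding bases are identical (96.6%), and 27.3% of the 75-base words of Acaa1a transcripts are found in Acaa1b too (28.5% the other way). The treatment of reads that match both is not stated in the sources used here, so values of this pair are uncertain. The 250 bases before their annotated starts, in contrast, shared 105 of 241 aligned bases (43.6%). They are printed because these stretches tell the 2 copies apart, with that of Ehhadh, the member with the highest fold difference between re-fed and fasted libraries under PLIN5 ASO when all libraries are used (without the clock-shifted ones that is Crat, at a log2 fold change of -1.50 against -1.20). All 3 come from RefSeq (GRCm38.p6), read 5′ to 3′ on the gene's strand. Capitals mark CCAAT, the letters bound by NF-Y, on either strand, so that ATTGG is CCAAT on the other strand.
Ehhadh (chr16:21787835-21788084, minus strand): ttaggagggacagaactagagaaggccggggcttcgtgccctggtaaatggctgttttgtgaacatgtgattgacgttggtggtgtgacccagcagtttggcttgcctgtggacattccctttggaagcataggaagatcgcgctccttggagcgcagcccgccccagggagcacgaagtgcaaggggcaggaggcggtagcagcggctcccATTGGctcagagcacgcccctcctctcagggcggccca
Acaa1a (chr9:119341044-119341293, plus strand): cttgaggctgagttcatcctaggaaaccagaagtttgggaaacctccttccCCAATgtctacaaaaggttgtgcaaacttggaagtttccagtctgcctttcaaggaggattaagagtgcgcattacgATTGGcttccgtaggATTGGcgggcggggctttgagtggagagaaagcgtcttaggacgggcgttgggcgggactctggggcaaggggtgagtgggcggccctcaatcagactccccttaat
Acaa1b (chr9:119157094-119157343, minus strand): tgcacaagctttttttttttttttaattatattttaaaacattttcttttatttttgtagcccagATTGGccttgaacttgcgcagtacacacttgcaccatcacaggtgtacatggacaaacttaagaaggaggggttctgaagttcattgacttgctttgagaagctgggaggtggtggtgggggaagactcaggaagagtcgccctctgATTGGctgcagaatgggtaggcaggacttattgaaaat
The window of Acaa1a lies inside the longer GENCODE span, whose start is further upstream. CCAAT was present 3 times in the Acaa1a window, 2 times in that of Acaa1b and 1 time in that of Ehhadh, and this motif was chosen after the sequences were seen. RefSeq windows matched 6 of the 8 members, 7 windows in all, and CCAAT was in 3 of the 7 and in 33.8% of all 32851 windows of that length. The windows of Abcd3, Pex11a and Decr2 held 0. A direct repeat of AGGTCA with 1 base between the copies, the form that PPAR alpha binds with RXR, was in 0 of the 7 windows and in 0.0335% of all windows on either strand. The looser repeat of AGGNCA with the same gap was in 0 of 7 and in 0.338% of all. No match says only that these letters are not in these 250 bases.

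Per transcript length, as the deposited fragments per kilobase (FPKM), the thiolase Acaa1b was highest of the 8 in every group. Its mean was 388 ± 139 FPKM in re-fed PLIN5 ASO libraries, 464 ± 156 in re-fed controls, 823 ± 91.0 in fasted PLIN5 ASO libraries and 986 ± 78.7 in fasted controls. Crat, the carnitine acetyltransferase, was lowest, at 8.84 ± 4.04, 7.82 ± 1.84, 26.5 ± 5.53 and 24.5 ± 3.21 FPKM in the same order of groups. Hsd17b4 and then Abcd3 came next throughout, with 214 ± 4.66 and 193 ± 8.10 FPKM in fasted controls, and their ranges overlapped in re-fed controls only. Decr2 followed in all groups, but with fasted PLIN5 ASO its mean of 163 ± 14.0 FPKM and that of Ehhadh, 163 ± 79.9 FPKM, did not differ beyond their spread. Ehhadh stood above Pex11a without overlap in both fasted groups and overlapped Pex11a in both re-fed ones. The neighbours Decr2 and Acaa1a overlapped in fasted controls and in both re-fed groups. Over the 19 libraries the highest CPM of a member was 7.82 times its lowest for Crat, 6.97 times for Ehhadh and 3.51 to 4.22 times for both thiolases, Pex11a and Decr2, but 1.74 times for Hsd17b4 and 1.71 times for Abcd3.

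**Figure D1:**
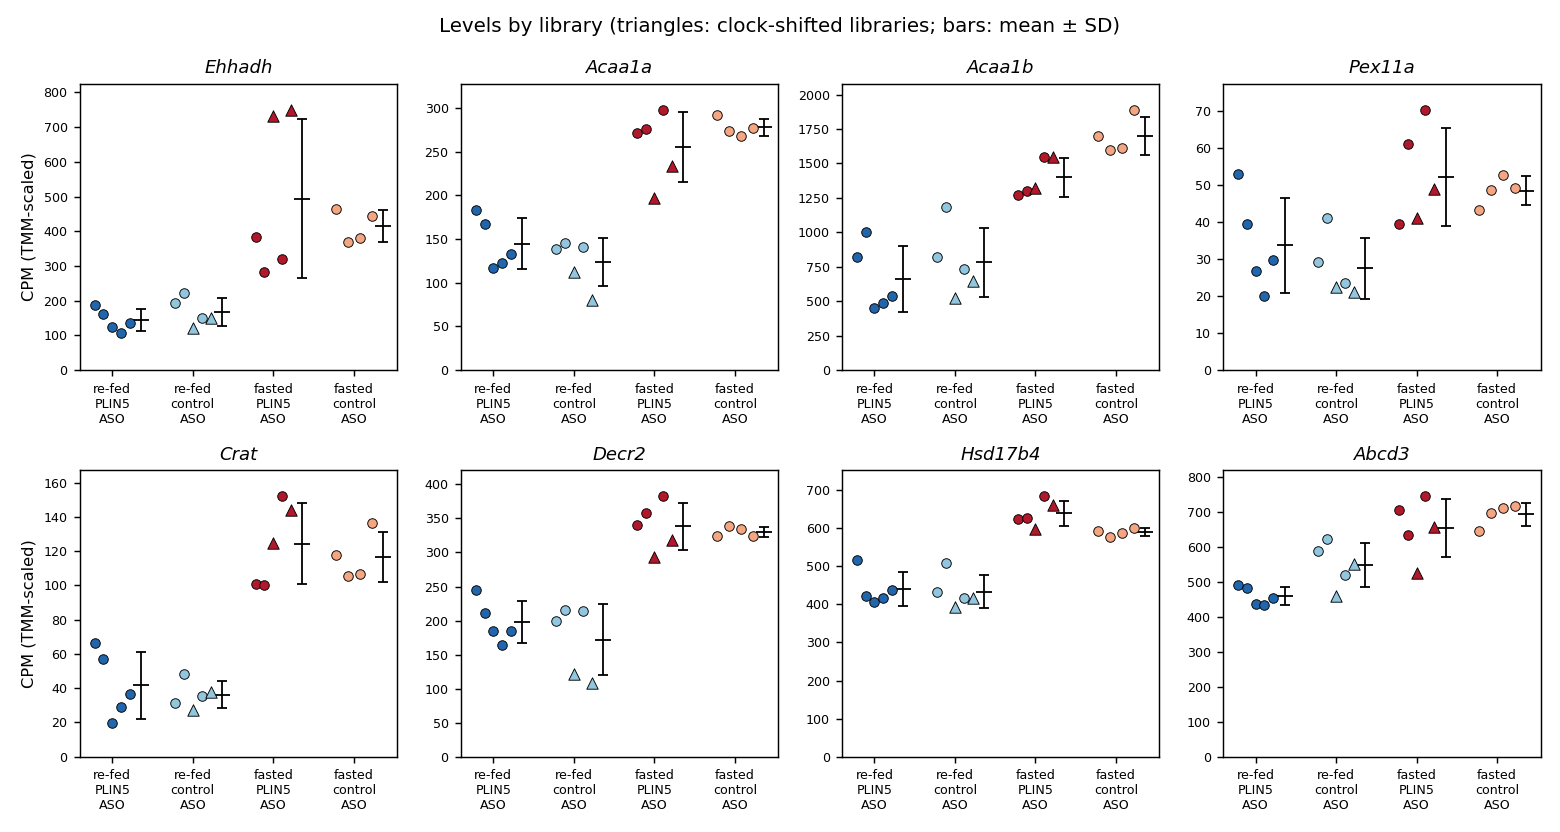
CPM of each of the 8 members (1 panel each, linear axis from 0) in the 4 groups, with 1 point per library and the mean and SD as bars. Clock-shifted libraries are triangles. Fasted libraries stand above re-fed ones for Ehhadh, Crat and both thiolases, Pex11a overlaps between feeding states under PLIN5 ASO, and the 2 high Ehhadh points of fasted PLIN5 ASO, at 733 and 750.4 CPM, are the clock-shifted ones.

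The first comparison asks what 4 h of food did to these genes after the fast, under each ASO. All 8 members had lower means re-fed than fasted under either ASO. With PLIN5 ASO 7 of the 8 were called lower, and 4.14% of all tested genes were called lower there (4.5% higher). With control ASO all 8 were called lower, beside 6.82% of tested genes (6.42% were called higher). The median log2 fold change of the members was -0.80 with PLIN5 ASO and -1.03 with control ASO, while that of all tested genes was 0.00 and 0.03. Re-fed libraries were all below fasted ones for 7 of the 8 with PLIN5 ASO and for all 8 with control ASO. Among all tested genes 3.63% and 9.12% stood apart in that direction. Falls were deepest for Ehhadh and Crat and shallowest for Hsd17b4 and Abcd3. In bulk liver RNA, fewer cells of a type and less RNA per cell cannot be told apart.

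Import comes first in the pathway. Abcd3, also called PMP70, is an abundant half-transporter of the peroxisome membrane that brings in CoA esters. It was at 490.4, 482, 437, 433 and 454 CPM in re-fed PLIN5 ASO libraries 1 to 5 and 704, 633, 526, 743 and 656 CPM in the fasted ones. In re-fed controls it was at 588, 621, 459, 518 and 550.1 CPM, against 645, 697, 711 and 717 CPM in fasted controls. Every re-fed library was below every fasted one of the same ASO. Re-fed means of 459 ± 25.9 CPM with PLIN5 ASO (SD, n = 5) and 547 ± 62.7 CPM with control ASO (n = 5) stood against fasted means of 652 ± 82.7 (n = 5) and 692 ± 32.9 CPM (n = 4). Abcd3 fell by 0.51 on the log2 scale with PLIN5 ASO (SE 0.09, edgeR adjusted p = 0.00167) and by 0.34 with control ASO (SE 0.10, edgeR adjusted p = 0.0253). The control call was lost without fasted control 3, 4 or 5 (adjusted p = 0.0614, 0.0675 and 0.0665), without re-fed control 3 (0.0676), without the clock-shifted libraries (log2 fold change -0.27, adjusted p = 0.0657) and with fasted control 3 and 4 counted as 1 sample (0.0641).

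Both bifunctional enzymes, which take the hydration and the second oxidation, were lower after food, by unlike amounts. Ehhadh, the L-bifunctional enzyme, best known for dicarboxylic acids, was at 188, 161, 124, 108 and 136 CPM in re-fed PLIN5 ASO libraries and 384, 284, 733, 320.2 and 750.4 CPM in fasted ones. Under control ASO its values were 192, 222, 120.1, 149 and 149 CPM re-fed and 463, 367, 382 and 444 CPM fasted. No re-fed library reached the lowest fasted one under either ASO, and in the fasted PLIN5 ASO group the 2 clock-shifted libraries, 3 and 5, were far above the other 3. The means were 144 ± 31.9 CPM re-fed against 494 ± 229 CPM fasted with PLIN5 ASO (SD, n = 5 each), 3.44 times lower (log2 fold change -1.78, SE 0.25, edgeR adjusted p = 0.000230). With control ASO they were 167 ± 40.4 CPM re-fed (n = 5) against 414 ± 46.6 CPM fasted (n = 4), 2.49 times lower (-1.31, SE 0.26, edgeR adjusted p = 0.00266). Without the clock-shifted libraries the fall with PLIN5 ASO was smaller, with a log2 fold change of -1.20 (edgeR adjusted p = 0.000427), and the call stayed. That with control ASO was then -1.14 and was still called.

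Hsd17b4, the D-bifunctional enzyme, handles very long-chain and branched substrates and bile acid precursors. The gene spans chr18:50128201-50196269 on the plus strand. It was at 516, 423, 407, 416 and 439 CPM re-fed and 625, 628, 597, 684 and 661 CPM fasted with PLIN5 ASO. With control ASO the values were 432, 509, 393, 418 and 417 CPM re-fed and 592, 577, 588 and 601 CPM fasted. The fasted control libraries lay close together, and neither pair of groups overlapped. Its level was 1.45 times lower re-fed with PLIN5 ASO, at 440.4 ± 44.0 against 639 ± 33.7 CPM (log2 fold change -0.54, SE 0.08, edgeR adjusted p = 0.000266). With control ASO it was 1.36 times lower, at 434 ± 44.5 against 589.6 ± 10.1 CPM (-0.44, SE 0.08, edgeR adjusted p = 0.00169).

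The thiolases cut the chain. Acaa1a was at 183, 167, 116, 123 and 133 CPM re-fed and 271, 276, 197, 298 and 233 CPM fasted with PLIN5 ASO. In the control ASO groups it was at 138, 145, 112, 141 and 80.6 CPM re-fed and 292, 274, 268 and 277 CPM fasted. Groups did not overlap, and re-fed control 5 was lowest of all 19 libraries. The fall was 1.77 times with PLIN5 ASO, to 144 ± 29.1 CPM against 255 ± 40.1 CPM fasted (log2 fold change -0.82, SE 0.15, edgeR adjusted p = 0.00221). With control ASO it was 2.25 times, to 123 ± 27.3 CPM against 278 ± 10.2 CPM fasted (-1.17, SE 0.16, edgeR adjusted p = 0.000173). With the clock-shifted libraries left out, the log2 fold change was -0.97 under either ASO, and both calls stayed.

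Acaa1b was at 822, 1001, 448, 485 and 538 CPM re-fed and 1273, 1302, 1318, 1548 and 1549 CPM fasted with PLIN5 ASO, and at 820.1, 1179.8, 522, 733 and 648 CPM re-fed and 1698, 1599, 1608 and 1890.3 CPM fasted with control ASO. Re-fed libraries were scattered more than fasted ones, with PLIN5 ASO 1 and 2 and control 2 nearest to the fasted range and none inside it. Re-fed means of 659 ± 241 CPM with PLIN5 ASO and 781 ± 249 CPM with control ASO stood against 1398 ± 138 and 1699 ± 135 CPM fasted. The log2 fold changes were near each other, -1.09 with PLIN5 ASO (SE 0.21, edgeR adjusted p = 0.00295) and -1.12 with control ASO (SE 0.22, edgeR adjusted p = 0.00262). With the clock-shifted libraries left out, that with control ASO was -0.90, and the call stayed.

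Decr2, the reductase that removes awkward double bonds of polyunsaturated chains, was at 245, 212, 185, 164 and 184 CPM re-fed and 339.8, 358, 294, 382 and 319 CPM fasted with PLIN5 ASO. The control ASO libraries had 199.7, 215, 122, 213 and 109 CPM re-fed and 324, 339, 334 and 325 CPM fasted. All re-fed libraries were below all fasted ones, and re-fed control 3 and 5, both clock-shifted, were the lowest. It fell 1.71 times with PLIN5 ASO, to 198 ± 31.4 CPM against 338 ± 34.3 CPM fasted (log2 fold change -0.77, SE 0.16, edgeR adjusted p = 0.00550). With control ASO it fell 1.92 times, to 172 ± 52.1 CPM against 330.3 ± 7.43 CPM fasted (-0.94, SE 0.17, edgeR adjusted p = 0.00141). With the clock-shifted libraries left out, the order of the ASOs turned. The log2 fold change was then -0.86 with PLIN5 ASO and -0.66 with control ASO, and both calls stayed.

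Crat, which moves acetyl groups onto carnitine in peroxisomes and mitochondria, was at 66.1, 57.3, 19.4, 28.8 and 36.5 CPM re-fed and 101, 100.4, 125, 152 and 144 CPM fasted with PLIN5 ASO. Under the control oligonucleotide it was at 31.3, 48.4, 27.5, 35.5 and 37.8 CPM re-fed and 118, 105, 107 and 137 CPM fasted. The highest re-fed library, PLIN5 ASO 1, was still well below the lowest fasted one. The fall was 2.99 times with PLIN5 ASO, to 41.6 ± 19.6 CPM against 124 ± 23.8 CPM fasted (log2 fold change -1.58, SE 0.25, edgeR adjusted p = 0.000522). With control ASO it was 3.23 times, to 36.1 ± 7.95 CPM against 116 ± 14.5 CPM fasted (-1.69, SE 0.26, edgeR adjusted p = 0.000392).

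Pex11a, a membrane protein that elongates and multiplies peroxisomes rather than oxidising fat, was called lower with control ASO only. It was at 53.0, 39.3, 26.6, 19.96 and 29.6 CPM re-fed and 39.4, 61.0, 40.9, 70.3 and 48.9 CPM fasted with PLIN5 ASO. With control ASO it was at 29.1, 41.1, 22.3, 23.5 and 21.0 CPM re-fed and 43.3, 48.7, 52.7 and 49.0 CPM fasted. The PLIN5 ASO groups overlapped, with re-fed library 1 within the fasted range, and the control groups did not. With PLIN5 ASO the means were 33.7 ± 12.8 CPM re-fed and 52.1 ± 13.3 CPM fasted, and the log2 fold change of -0.63 (95% interval -1.11 to -0.15) was not called (edgeR adjusted p = 0.0932). It was called without re-fed PLIN5 ASO 1 (-0.85, adjusted p = 0.0179) and with DESeq2 (adjusted p = 0.0437). With control ASO it fell by 0.82 on the log2 scale, to 27.4 ± 8.26 CPM against 48.4 ± 3.9 CPM fasted (SE 0.24, edgeR adjusted p = 0.0294). That call was lost without fasted control 3, 4 or 5 (adjusted p = 0.0639, 0.0763 and 0.0610), without re-fed control 3, 4 or 5 (0.0716, 0.0556 and 0.0715), without the clock-shifted libraries (-0.63, adjusted p = 0.162) with fasted control 3 and 4 as 1 sample (0.0691) and with limma on log2 FPKM without a filter (0.0556).

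Some markers of hepatocytes and their zones were also called between re-fed and fasted livers. Pericentral markers are those of hepatocytes near the central vein. Their summed level was 7755 to 13045 CPM in re-fed controls, below the 19171 to 21457 CPM of fasted controls, with 2 of the 7 markers called lower. With PLIN5 ASO it was 10879 to 15863 CPM re-fed and 13670 to 19482 CPM fasted, with overlap, and 1 of the 7 was called lower. None of the 7 was at 0 in any library. The sum follows mostly Cyp2e1, at a median of 11198 CPM over the libraries, while the next marker, Glul, was at 1356 CPM. Of the 7, 6 had a log2 fold change below 0 and 1 above 0 with control ASO, and 4 below and 3 above with PLIN5 ASO. Of 6 periportal markers, 2 were called higher and 1 lower re-fed with PLIN5 ASO, and 0 higher and 1 lower with control ASO. Of 6 general hepatocyte markers, 2 were called higher and 1 lower with PLIN5 ASO, and 1 higher and 0 lower with control ASO. The part of these markers in the members' fall was not tested.

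**Figure D2:**
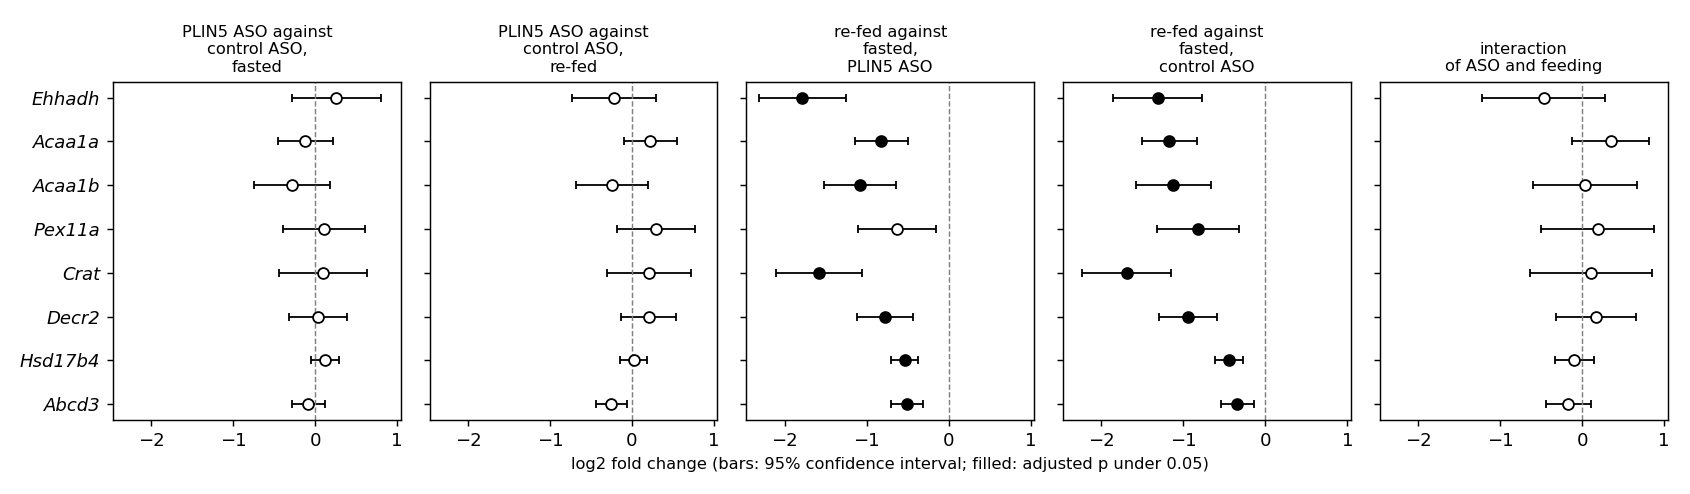
Log2 fold change of each member (points, edgeR) with its 95% interval (bars) in the 5 comparisons, with filled points for calls at an adjusted p under 0.05. All 16 re-feeding values lie left of 0 and 15 of them are called, while the ASO and interaction values lie on both sides of 0 and none is called.

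The next comparison asks what PLIN5 ASO did at a given feeding state. No member was called: in the re-fed livers 0 of 8, beside 1.38% of all tested genes, and in the fasted livers 0 of 8, beside 1.17%. DESeq2 and limma on log2 FPKM called 0 members in either state too. At an unadjusted p under 0.05 edgeR had 1 of 8 members in the re-fed livers, beside 19% of all tested genes, and 0 of 8 in the fasted ones, beside 15.1%. That member was Abcd3 in re-fed livers, at 459 ± 25.9 CPM with PLIN5 ASO and 547 ± 62.7 CPM with control ASO (log2 fold change -0.25, SE 0.09, 95% interval -0.44 to -0.06, edgeR adjusted p = 0.148). The ranges overlapped, since re-fed control 3 lay among the PLIN5 ASO libraries. Of 6 general hepatocyte markers 1 was called higher with PLIN5 ASO in re-fed livers, and of 7 liver endothelial markers 1 was called lower. Of the Kupffer cell, stellate cell and pericentral markers 0 were called there. The part of these markers in the level of Abcd3 was not tested.

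In the fasted livers Acaa1b was the only member without overlap between the ASO groups, all 5 PLIN5 ASO libraries being below all 4 controls. Its means were 1398 ± 138 CPM with PLIN5 ASO and 1699 ± 135 CPM with control ASO, but the log2 fold change of -0.28 (95% interval -0.74 to 0.18) was not called (edgeR adjusted p = 0.594), and 4.26% of all tested genes stood apart in that direction. Ehhadh was at 494 ± 229 CPM fasted with PLIN5 ASO, against 414 ± 46.6 CPM fasted with control ASO, and its SD was several times larger with PLIN5 ASO. Its log2 fold change of 0.26 (edgeR adjusted p = 0.706) became -0.33 without the 2 clock-shifted libraries. Kupffer cell and macrophage markers were at a sum of 169 to 439 CPM in the fasted PLIN5 ASO libraries, highest in the clock-shifted ones (439 and 305), against 147 to 177 CPM in the fasted controls, and 2 of 10 of them were called higher. None of the 10 was at 0 in any library. Of 8 stellate cell and fibroblast markers, 2 were called higher too, with sums of 168 to 254 CPM against 131 to 168 CPM. Of 7 pericentral markers 1 was called lower. Among all tested genes 1.17% were called in either direction. The part of these markers in the members' levels was not tested.

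The remaining members had log2 fold changes between -0.12 and 0.12 in the fasted livers, for Acaa1a, Pex11a, Crat, Decr2, Hsd17b4 and Abcd3. In the re-fed livers those of Ehhadh, both thiolases, Pex11a, Crat, Decr2 and Hsd17b4 lay between -0.25 and 0.30. Intervals were wide for the members with the most scatter: Pex11a in re-fed livers had 33.7 ± 12.8 CPM with PLIN5 ASO and 27.4 ± 8.26 CPM with control ASO, or 0.30 on the log2 scale with a 95% interval of -0.18 to 0.78. That of Hsd17b4, the steadiest, was 0.02 with an interval of -0.14 to 0.18. These are sizes the data leave possible, not evidence that the ASO groups were equal.

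Whether the fall after food differed between the ASOs was tested as an interaction, the log2 fold change with PLIN5 ASO minus that with control ASO. edgeR called 0 of the 8 members, with 0 at an unadjusted p under 0.05 beside 15% of all tested genes, and DESeq2 and limma called 0 too, beside 0.0226% of all tested genes called by edgeR. The interaction of Ehhadh was -0.47 (95% interval -1.22 to 0.28, edgeR adjusted p = 0.548) and that of Acaa1a 0.35 (-0.12 to 0.81, edgeR adjusted p = 0.466). The other members were between -0.17 and 0.19. Both of the larger values depended on the clock-shifted libraries: with these left out, Ehhadh was at -0.0578 and Acaa1a at 0.00743. Abcd3 moved the other way, from -0.17 to -0.33. Pex11a, called with control ASO and not with PLIN5 ASO, had an interaction of 0.19 (edgeR adjusted p = 0.808), so its fall was not shown to differ between the ASOs.

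The balance within pairs of like enzymes also varied. Both ratios below were chosen after the values were seen and are given as a description without a test, and since transcripts differ in length only their change between libraries can be read, not their size. Ehhadh over Hsd17b4, the L- over the D-bifunctional enzyme in CPM, was 0.365, 0.382, 0.304, 0.259 and 0.311 in re-fed PLIN5 ASO libraries and 0.445, 0.436, 0.306, 0.357 and 0.357 in re-fed controls. In the fasted state it was 0.614, 0.451, 1.23, 0.468 and 1.14 with PLIN5 ASO and 0.782, 0.637, 0.649 and 0.738 with control ASO. Every re-fed ratio was below every fasted ratio, and fasted PLIN5 ASO 3 and 5, both clock-shifted, were alone in having more Ehhadh than Hsd17b4 counts. The mean log2 ratio, re-fed minus fasted, differed by -1.15 with PLIN5 ASO and by -0.89 with control ASO, and by -0.66 and -0.77 without the clock-shifted libraries.

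The thiolase ratio, Acaa1b over Acaa1a, behaved otherwise. It was 4.49, 5.98, 3.85, 3.95 and 4.05 in re-fed PLIN5 ASO libraries and 5.94, 8.12, 4.66, 5.19 and 8.04 in re-fed controls. Fasted, it was 4.69, 4.71, 6.70, 5.19 and 6.64 with PLIN5 ASO and 5.81, 5.85, 5.99 and 6.83 with control ASO. Re-fed and fasted ratios overlapped under either ASO, and 4 of the 5 re-fed PLIN5 ASO ratios were below all re-fed control ratios. The mean log2 ratio differed between re-fed and fasted livers by -0.33 with PLIN5 ASO and 0.03 with control ASO, and between PLIN5 ASO and control ASO by -0.50 re-fed and -0.15 fasted. Without the clock-shifted libraries these were -0.14, 0.05, -0.52 and -0.33. Reads shared by the 2 genes could move this ratio, and their part was not tested.

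**Figure D3:**
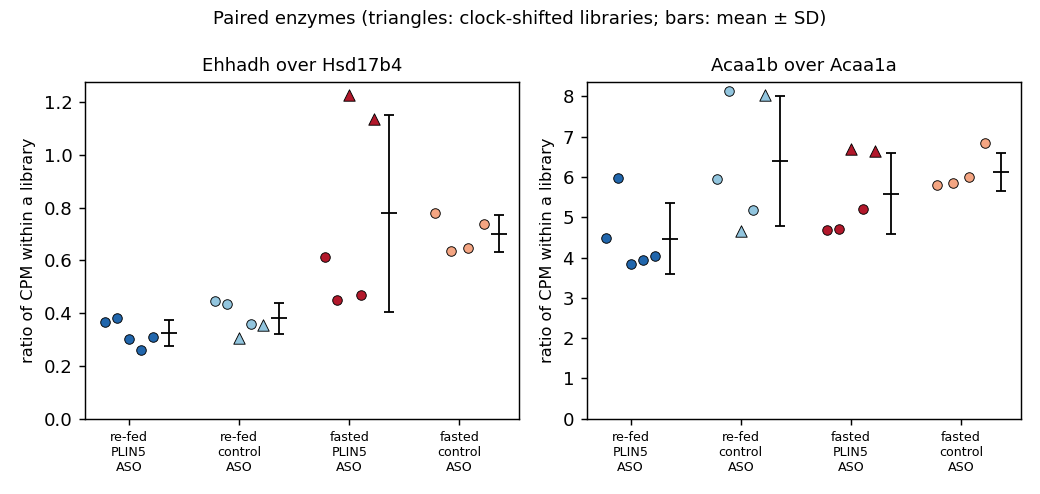
Ratio of CPM of Ehhadh to Hsd17b4 (left) and of Acaa1b to Acaa1a (right) in the 4 groups on a linear axis from 0, 1 point per library with the mean and SD as bars, and clock-shifted libraries as triangles. The first ratio separates re-fed (0.259 to 0.445) from fasted libraries (0.451 to 1.23), and the second, between 3.85 and 8.12, does not.

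Within the re-fed groups some libraries were high or low for all members together. Among re-fed PLIN5 ASO libraries, library 1 was above its group mean of log2 CPM for all 8 members (median deviation 0.38) and library 4 below for all 8 (median -0.31), as was library 3. Among re-fed controls, library 2 was above for all 8 (0.42) and library 3, a clock-shifted one, below for all 8 (-0.31). In fasted PLIN5 ASO library 4, 7 of the 8 were above the group mean. Fasted controls kept within 0.04 of their mean at the median.

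Deviations from the group means over the 19 libraries had a Pearson r of 0.88 for Acaa1a and Decr2 and 0.85 for Acaa1b and Crat. They had an r of 0.03 for Ehhadh and Acaa1a and 0.01 for Ehhadh and Abcd3. In fasted PLIN5 ASO 3 and 5, both clock-shifted, Ehhadh deviated by 0.69 and 0.73 on the log2 scale. There Acaa1a deviated by -0.36 and -0.11 and Abcd3 by -0.30 and 0.02. No r was computed without the clock-shifted libraries, so the low r of Ehhadh may depend on them. These r describe libraries that share depth and scaling and carry no p.

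**Figure D4:**
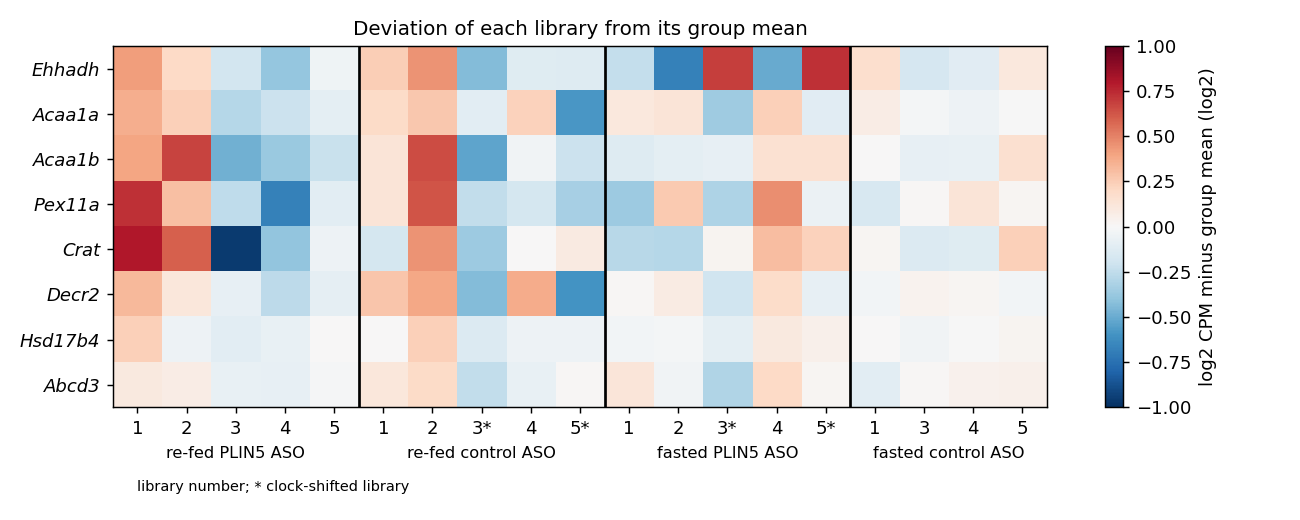
Deviation of log2 CPM from the group mean for the 8 members (rows) in the 19 libraries (columns, grouped), in colour from below to above the mean. Re-fed PLIN5 ASO 1 and re-fed control 2 are above for all 8 members, re-fed PLIN5 ASO 3 and 4 and re-fed control 3 below for all 8, and Ehhadh stands out in fasted PLIN5 ASO 3 and 5.

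Other genes of the organelle were counted from lists written with earlier results of these data known. Of 21 tested genes of peroxisomal beta-oxidation beyond the members, 9 were called lower and 1 higher re-fed with PLIN5 ASO, and 8 lower and 0 higher with control ASO. Their median log2 fold change was -0.52 with PLIN5 ASO and -0.45 with control ASO, and 8 genes were lower under both: Crot, Ech1, Eci2, Amacr, Acot8, Slc27a2, Acbd5 and Mlycd. Crot, which makes the carnitine esters of shortened chains, fell most of the 4 named by smallest p with PLIN5 ASO, to 283 CPM re-fed against 846 CPM fasted (log2 fold change -1.58, 2.99 times lower). Its fasted PLIN5 ASO libraries were scattered, from 527 to 1261 CPM, and this log2 fold change ranged from -1.71 to -1.09 over the alternatives run. Slc27a2, which activates very long-chain fatty acids, fell by 0.81 with PLIN5 ASO and by 0.87 with control ASO on the log2 scale. Amacr, the racemase for branched chains, fell by 0.63 and 0.51, Acot8, a thioesterase, by 0.64 with PLIN5 ASO, and Ech1 and Eci2, which shift double bonds, by 0.91 and 1.26 with control ASO. Pecr, a reductase of chain elongation, was the 1 called higher, with PLIN5 ASO (0.32, edgeR adjusted p = 0.0174), named here after its value was seen.

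Peroxisomal enzymes of other pathways had medians near 0. Of 16 tested, 4 were called lower and 1 higher re-fed with PLIN5 ASO, and 5 lower and 1 higher with control ASO, with medians of -0.04 and -0.06. Ephx2, the soluble epoxide hydrolase, fell by 0.62 and 0.59 on the log2 scale with PLIN5 and control ASO, and Lonp2, the protease of the peroxisome matrix, by 0.40 and 0.47. Phyh, which starts alpha-oxidation of phytanic acid, fell by 0.32 with control ASO. It was called lower with PLIN5 ASO too, at 2768 CPM re-fed and 3195 CPM fasted. Hacl1, the lyase of the same route, fell by 0.89 with PLIN5 ASO and was not called with control ASO. Phyh, Ephx2 and Lonp2 were thus the 3 called lower under both. Hao1, glycolate oxidase, rose by 0.29 with PLIN5 ASO and by 0.34 with control ASO. The PLIN5 ASO calls of Lonp2 and Hacl1 were lost without the clock-shifted libraries (adjusted p = 0.0755 and 0.128), where 1 of the 16 was called lower. That of Lonp2 was also lost with only the groups compared in the fit (0.0576) and that of Hacl1 with limma on log2 FPKM without a filter (0.0507). The control call of Hao1 was lost without fasted control 3 or 4 (0.0521 and 0.0588) and with the 2 as 1 sample (0.0547). With control ASO 3 of the 16, not 5, were called lower without fasted control 1, 3 or 4, without re-fed control 5, without the clock-shifted libraries or with fasted control 3 and 4 as 1 sample. That of Hao1 with PLIN5 ASO was lost without re-fed PLIN5 ASO 3 (0.0781), re-fed PLIN5 ASO 4 (0.0596), fasted PLIN5 ASO 3 (0.0707), fasted PLIN5 ASO 4 (0.0592) and fasted PLIN5 ASO 5 (0.0674) as well as without the clock-shifted libraries (0.158) and with only the groups compared in the fit (0.0855).

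Genes that build the organelle had small median differences. Of 21 peroxins and membrane genes, 2 were called lower and 0 higher re-fed with PLIN5 ASO, and 4 lower and 1 higher with control ASO, with medians of -0.11 and -0.18. Pex19, the chaperone of membrane proteins, fell by 0.43 with PLIN5 ASO and by 0.60 with control ASO, and Pex6, an ATPase of the import machinery, by 0.25 and 0.44. Pex14, the docking protein, fell by 0.55 with control ASO, and Dnm1l, the fission GTPase, rose by 0.41 there but was not called without the clock-shifted libraries (edgeR adjusted p = 0.0686). With PLIN5 ASO, 4 of the 21 were called lower without re-fed PLIN5 ASO 1. The Pex6 call with PLIN5 ASO was lost, and 1 of the 21 was then called lower in all, without re-fed PLIN5 ASO 3 (0.110), re-fed PLIN5 ASO 4 (0.0898), re-fed PLIN5 ASO 5 (0.0712), fasted PLIN5 ASO 1 (0.0815), fasted PLIN5 ASO 2 (0.0812) or fasted PLIN5 ASO 4 (0.0538), with no filter on low counts (0.0569) and with only the groups compared in the fit (0.0812).

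**Figure D5:**
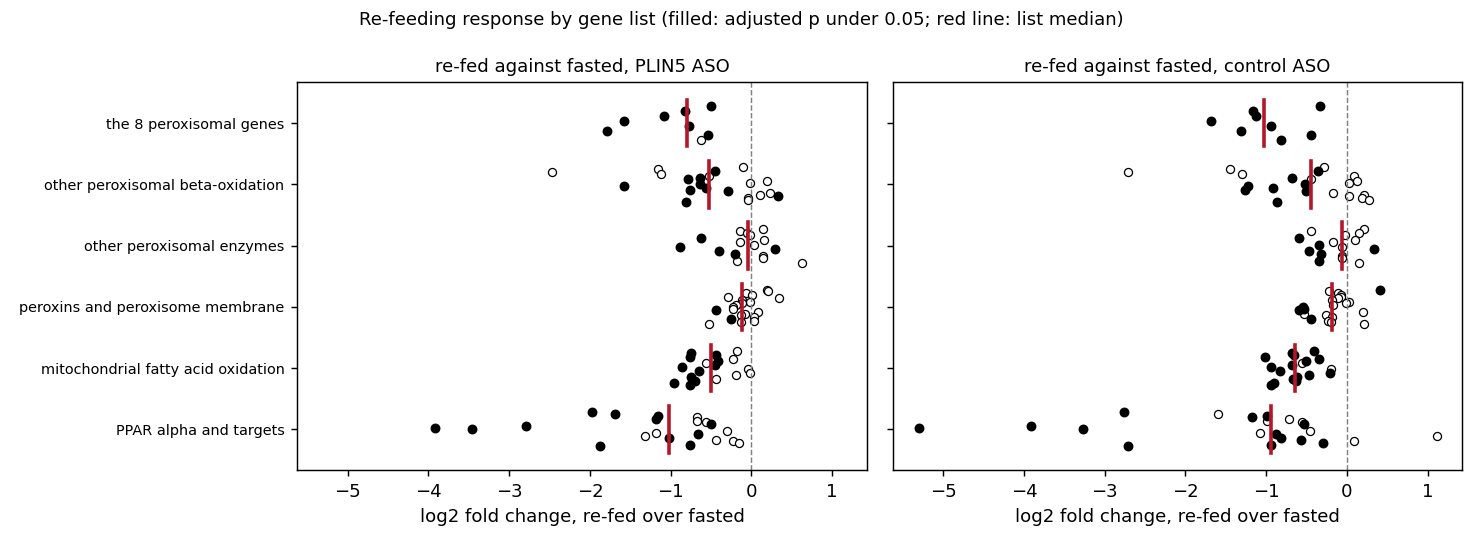
Log2 fold change of every tested gene of each list for re-feeding under PLIN5 ASO and under control ASO, with filled points for calls at an adjusted p under 0.05 and a red line at the list's median. The members and the other beta-oxidation genes lie mostly left of 0, with medians of -0.80 and -0.52 with PLIN5 ASO, and the peroxins are centred near 0, at -0.11.

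Mitochondrial fatty acid oxidation, the partner pathway, had 11 of 18 genes called lower re-fed with PLIN5 ASO and 16 of 18 with control ASO, 0 higher in either, with medians of -0.50 and -0.64. Hadhb and Hadha, the subunits of the trifunctional protein, fell by 0.95 and 0.70 with PLIN5 ASO, and Acadm, the medium-chain dehydrogenase, by 1.02 with control ASO. Decr1, the mitochondrial counterpart of Decr2, fell by 0.86 with PLIN5 ASO and by 0.93 with control ASO. PPAR alpha and its targets had 12 of 21 genes called lower with PLIN5 ASO and 13 of 21 with control ASO, with medians of -1.02 and -0.95, and 10 were lower under both. Cyp4a31, an omega-hydroxylase whose products are dicarboxylic acids, was at 5.41 CPM re-fed and 59.3 CPM fasted with PLIN5 ASO, 11 times lower, and at 3.70 and 35.7 CPM with control ASO. Slc25a20 and Cpt1a are on both of the last lists. Without the clock-shifted libraries, 14 mitochondrial genes and 16 PPAR alpha genes were called lower with PLIN5 ASO and 15 and 10 with control ASO.

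In the ASO comparisons and the interaction, edgeR called 0 genes of these 5 lists. Of the 21 further beta-oxidation genes, 5 had an unadjusted p under 0.05 between PLIN5 and control ASO re-fed, 4 fasted and 4 in the interaction, where 19%, 15.1% and 15% of all tested genes did. The corresponding numbers were 2, 1 and 3 of the 16 other enzymes, 3, 2 and 5 of the 21 peroxins and membrane genes, 3, 0 and 1 of the 18 mitochondrial genes and 3, 1 and 1 of the 21 PPAR alpha genes. limma on log2 FPKM called 0 of them as well. DESeq2 called 1 gene each of the peroxin list (Fis1), the mitochondrial list (Etfb) and the PPAR alpha list (Pdk4) re-fed and 1 of the PPAR alpha list fasted (Angptl4), 0 others and 0 in the interaction, and these 4 are named after their values were seen.

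Each member was also set beside the genes whose level followed it most closely, by Pearson r of log2 CPM over the 19 libraries among 10911 genes. The points share the 4 groups, depth and scaling, so these r are a description. Acaa1a was most like Eci1 (r = 0.98), Eci2 (0.97) and its fellow member Decr2 (0.97). Decr2 was most like Pctp (0.99), Acot12 (0.98) and Eci2 (0.98). Hsd17b4 was most like Hadha (0.98), Hadhb (0.97) and Oplah (0.97). Crat was nearest to Acsl1, Cpt2 (0.97 each) and Hadha (0.96), and Acaa1b to Acot1 (0.95), Acsl1 and Adtrp (0.94 each). Ehhadh was nearest to Cyp4a31, Hsdl2 and Retsat (0.96 each). Pex11a and Abcd3 had weaker companions: Acads and Fgf1 (0.93 each) for Pex11a, and Tapt1 (0.92) and Acaa1b (0.89) for Abcd3.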

How the data were processed

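Liver total RNA was extracted with the RNeasy kit and sequenced from standard Illumina libraries, per the labels' protocols. Tools and builds listed in the submitters' processing notes, without their role, are HISAT2 2.0.2, Subread, Cuffdiff 2.2.1, edgeR and FastQC, and mm10 and GRCm38. The authors deposited whole-number read counts per gene symbol and a table of FPKM per gene symbol (24347 symbols). The sources used here give neither the annotation nor the treatment of multi-mapping reads.

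Counts of all 19 libraries were fitted together in R 4.3.3 with edgeR 4.0.16 (TMM scaling, filterByExpr with a minimum count of 10, a mean per group, quasi-likelihood test, two-sided, Benjamini-Hochberg adjustment over 13293 genes, threshold 0.05). The code was also run on simulated independent libraries with the spread estimated from these data. That run checks the code and cannot show that the model suits these libraries. The biological coefficient of variation was 19.3%. DESeq2 1.42.0, and limma 3.58.1 on log2(FPKM + 1) with genes under 0.5 FPKM left out, served as alternatives. Replicate numbers were checked for pairing and did not pair the samples. Intervals are 95%. The members and lists were chosen with earlier results of these data known. In each comparison all members and Plin5 are named, and from each list up to 4 called genes with the smallest p. For genes of like pattern, the 3 with the highest r among genes with a mean of at least 1 CPM are named. Some genes that these rules name are not reported here.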

Additional observations from a re-analysis of the deposited data

How the results depend on the processing

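The count of members called stayed at 0 for both ASO comparisons and the interaction under every alternative run, and ranged over single libraries left out from 7 to 8 (PLIN5 ASO) and 6 to 8 (control ASO) for re-feeding. Without the clock-shifted libraries it was 7 with PLIN5 ASO and 6 with control ASO, and with fasted control 3 and 4 as 1 sample 6 with control ASO. No member changed direction in the re-feeding comparisons. Some ASO differences did, among them that of Ehhadh in fasted livers, 0.26 with all libraries. Fasted, these were Decr2 with the replicate block (-0.0223) and, without the clock-shifted libraries, Ehhadh (-0.33), Acaa1a (0.0213) and Abcd3 (0.00203). Re-fed, they were Decr2 (-0.0826) and Hsd17b4 (-0.0409) without the clock-shifted libraries and Hsd17b4 with the length trend taken out (-0.0128) and with limma (-0.00367 in 3 settings). In the interaction they were Acaa1b (-0.16), Pex11a (-0.12) and Decr2 (-0.21) without the clock-shifted libraries, Acaa1b with the length trend taken out (-0.0885) and with limma (-0.00169 and -0.00206), and Crat with limma (-0.0173 and -0.0223). With single libraries left out, signs turned fasted for Pex11a (-0.0291 to 0.19) and Decr2 (-0.0161 to 0.0822), re-fed for Crat (-0.0250 to 0.38) and Hsd17b4 (-0.0420 to 0.0860), and in the interaction for Acaa1b (-0.17 to 0.23), Pex11a (-0.0311 to 0.38) and Crat (-0.12 to 0.29). The cause was not tested.

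Same-numbered libraries had correlations of deviations of -0.21 to 0.17, so the numbers were not taken as pairs. With the replicate block 0, 0, 7, 8 and 0 members were called (ASO fasted, ASO re-fed, re-feeding with PLIN5 ASO, with control ASO, interaction), as without it. For re-feeding with PLIN5 ASO, the lists of other enzymes and peroxins had 1 to 4 and 1 to 5 genes called lower over the alternatives run.

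Counts over all genes, in the same order 156, 183, 1148, 1759 and 3, moved by over 1.5 times in these settings: DESeq2 (433, 612 and 96 for the first 2 and the last), only the groups compared (4 for ASO re-fed), fasted control 3 and 4 as 1 sample (36, control re-feeding 1139 and interaction 0), no clock-shifted libraries (45 for ASO re-fed and 1167 for control re-feeding), the length trend taken out (50 for ASO re-fed, interaction 0), no filter on low counts (interaction 0), limma on log2 FPKM (interaction 0 with either pseudocount, and 70 fasted without a filter) and the replicate block (253 fasted, 290 re-fed, 1 interaction). Single libraries left out gave 22 to 186, 45 to 341, 741 to 1170, 1112 to 1835 and 0 to 3. All 8 members had at least 537 counts in every library, and the part of depth in the calls was not tested.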

Other observations

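The 8 members together held 0.172% to 0.251% of a library's counts in re-fed PLIN5 ASO livers, 0.179% to 0.314% in re-fed controls, 0.352% to 0.428% in fasted PLIN5 ASO livers and 0.396% to 0.444% in fasted controls. No re-fed library reached the lowest fasted one.

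Pex11g, a membrane protein related to Pex11a, was not called for re-feeding under either ASO. It was at 57.9 CPM re-fed and 58.3 CPM fasted with PLIN5 ASO and at 53.7 CPM re-fed and 52.8 CPM fasted with control ASO (edgeR adjusted p = 0.942 and 0.861). It was named after its values were seen, and a p that misses the threshold does not show that its levels were equal.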
